A study of Mus musculus with 6 samples.

Results

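The genes of integrin chains and of the proteins that couple them to actin were followed here between arrays labelled CD98hc KO and arrays labelled WT. Genes were taken from a list of 37 names, of which 31 were measured, and from a name pattern for integrin alpha and beta genes, which added 10. This gave 41 of the 17097 genes measured, on 84 probe sets: 16 integrin alpha genes, 8 integrin beta genes, 16 adaptor genes and 1 gene, Itgb3bp, that only carries an integrin name and encodes a centromere protein. It is left out of all counts below, which run over 40 genes. Itga11, Itgb8, Tgfb1i1, Actn4, Ptk2 and Fermt1 were listed but not analysed here.

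RNA of 6 samples was hybridised to Affymetrix mouse genome arrays, 3 of them labelled CD98hc KO and 3 labelled WT, with replicate numbers 1, 3 and 5 under each label. The methods describe both lines as fibroblasts derived from mouse embryonic stem cells, and the cells shared one culture medium, with serum and β-mercaptoethanol. CD98hc KO cells lack the heavy chain of the CD98 amino acid transporters, encoded by Slc3a2. Whether a line is 1 clone, and whether the arrays of a label came from separate cultures, is not stated in the labels or methods, so the spread behind each p-value is that between arrays and may be technical. All values are log2 expression by RMA (Robust Multichip Average), each gene is given by its most variable probe set, and a gene passed the test at an adjusted p under 0.05 in limma over all 17097 genes.

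Integrins are receptors made of an alpha and a beta chain that bind matrix proteins or other cells on the outside. Inside the cell the short tail of the beta chain binds talin and kindlin, which recruit vinculin, the complex of ILK, PINCH and parvin, paxillin, zyxin and actin crosslinkers into focal adhesions. In fibroblasts these contacts carry traction and matrix assembly, while embryonic stem cells hold on to laminin and to each other. CD98hc binds beta tails directly and strengthens integrin signals, which is why these genes were compared between the labels.

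The arrays differed in cell type markers along with the labels. Slc3a2 itself had 11.65, 11.57 and 11.54 on the KO-labelled arrays and 10.64, 10.67 and 10.51 on the WT-labelled arrays, so the gene named in the KO label was higher there, and where its single probe set lies relative to the deletion is not known. Directions below follow the labels as deposited, and whether the labels were exchanged, which would turn every direction, or whether the lines were other cells than labelled was not tested. Pluripotency markers were higher on the KO-labelled arrays for 9 of 9 genes measured, with a median level of 11.03 to 11.15 there and of 4.64 to 4.94 on the WT-labelled arrays. Summed on the linear scale, they reached 23600 to 26200 under the KO label and 324 to 455 under the WT label. Of 10 fibroblast markers, 5 were lower and 2 higher on the KO-labelled arrays, with sums of 1760 to 2360 there and of 8030 to 14900 under the WT label. The largest falls were of S100a4 (4.75 on the KO-labelled, 11.76 on the WT-labelled arrays) and Col3a1 (4.42 on the KO-labelled, 11.31 on the WT-labelled arrays), beside a median of 4.23 for the probe sets that measure nonspecific background. These 23 background probe sets ran from 3.28 to 8.32, so the median alone marks no sharp limit of detection. Fbln1 went the other way, at 10.68 on the KO-labelled and 6.71 on the WT-labelled arrays, and without it the sums were 312 to 383 under the KO label and 7920 to 14800 under the WT label. Thy1 was also higher, at 4.89 on the KO-labelled and 4.52 on the WT-labelled arrays. Pdgfra, Dcn and Lum did not pass and were low under both labels, with means of 4.25, 5.04 and 4.20 under the KO label and of 4.50, 5.40 and 4.17 under the WT label. The epithelial markers summed to 3080 to 4750 under the KO label and 311 to 339 under the WT label, and 8 of 9 were higher. The genotype in the label and this difference in markers run over the same 6 arrays and cannot be told apart, nor can fewer cells of a type be told from less RNA per cell. On the replicate 3 arrays, the added hybridisation controls were lower by 1.21 on the log2 scale than on the other 4 arrays, for all 18 probe sets.

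Of the 40 genes, 17 were lower and 6 higher on the KO-labelled arrays, and 17 did not pass. This is 57.5% of the 40, against 41.9% of all genes. The lower calls made up 42.5%, against 19.2% of all genes, and the higher calls 15%, against 22.6%. Over 2-fold, 10 genes were lower and 4 higher, 35% of the 40. Over all genes 19.4% changed by that much, 10.1% lower and 9.27% higher. The groups of 3 arrays did not overlap for 24 of the 40 genes, and for 51.5% of all genes. The alpha and beta genes were divided between the directions, with median log2 fold changes of 0.03 and −0.06. The adaptor genes had a median of −0.83, against 0.02 over all genes. Dim genes limit this comparison, since 6 alpha, 2 beta and 0 adaptor genes lay under the median of all values on all 6 arrays. Summed on the linear scale, where bright genes weigh most, the alpha genes reached 1910 to 2200 under the KO label and 4030 to 4270 under the WT label. The beta genes reached 2030 to 2280 and 3050 to 3330 under these labels, and the adaptor genes 7550 to 8710 and 14800 to 18100. Of the alpha genes 43.8% passed, near the 41.9% of all genes, with 25% lower and 18.8% higher. Of the beta genes 50% passed, and of the adaptor genes 75%. The size of the change, whatever its direction, had a median of 0.76 on the log2 scale over the 40 genes and of 0.29 over all genes.

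**Figure D1:**
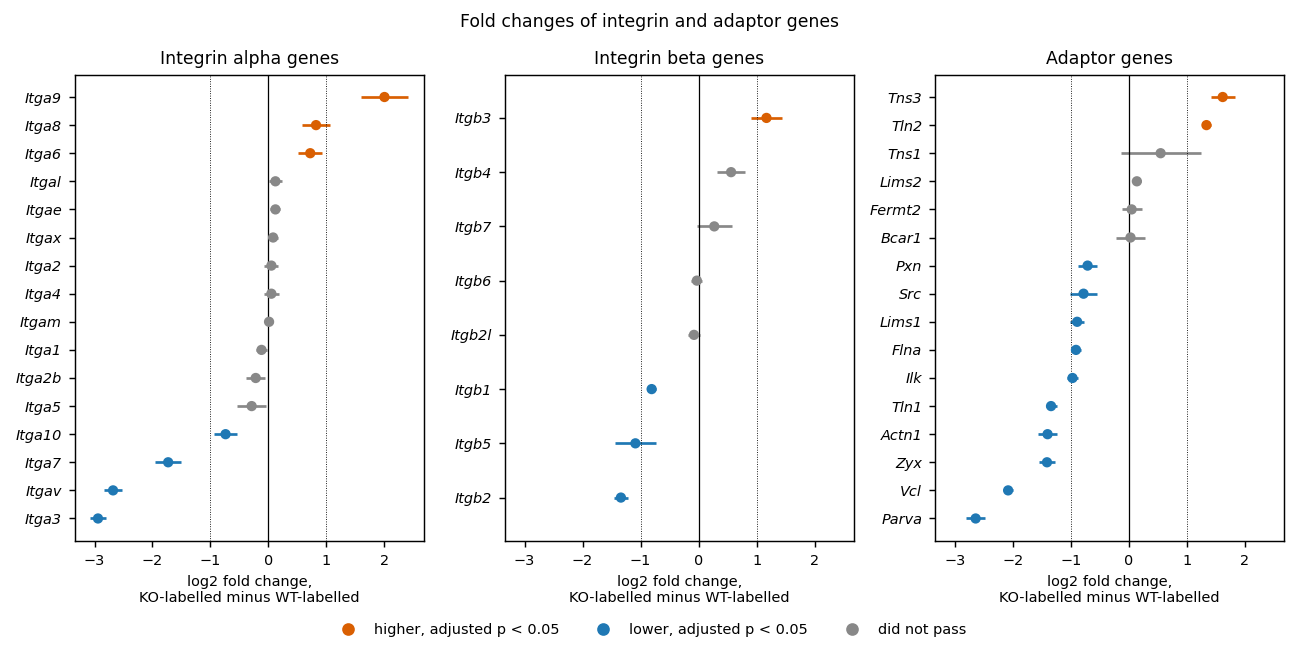
Log2 fold changes (KO-labelled minus WT-labelled arrays, x axis) of the 16 integrin alpha, 8 integrin beta and 16 adaptor genes, with bars for the standard error from limma and dotted lines at 2-fold. Orange genes were higher and blue genes lower at an adjusted p under 0.05. Itga3 (−2.94), Itgav (−2.68) and Parva (−2.64) lie farthest to the left and Itga9 (2.00) farthest to the right.

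Among the alpha chains that bind laminin, Itga3 and Itga7 were lower and Itga6 was higher on the KO-labelled arrays. Itga3, which pairs with the beta 1 chain as a laminin receptor of epithelia and cultured fibroblasts, had log2 values of 7.57, 7.19 and 7.44 on the KO-labelled arrays and 10.41, 10.15 and 10.45 on the WT-labelled arrays. The groups lay far apart, with a log2 fold change of −2.94 (limma, adjusted p = 1.4e-05, standard error 0.13), or 7.65-fold lower, the largest fall among the 40 genes. Its 3 probe sets all passed, at −2.94 to −2.19. Itga7, the laminin receptor chain best known from muscle, had 5.27, 5.56 and 5.68 on the KO-labelled and 7.03, 6.94 and 7.71 on the WT-labelled arrays. The highest KO-labelled value lay below the lowest WT-labelled one, and the log2 fold change was −1.73 (limma, adjusted p = 0.0012, standard error 0.22). Itga6, a laminin receptor chain long used as a surface marker of stem cells, ran the other way, with 9.95, 9.79 and 9.82 on the KO-labelled and 9.41, 9.35 and 8.64 on the WT-labelled arrays. WT replicate 5 was the lowest of the 6 arrays, the groups did not overlap, and without that array the log2 fold change was 0.47 (adjusted p = 0.0095 from limma). The log2 fold change was 0.72 (adjusted p = 0.033 from limma), and it did not pass without any 1 of the KO-labelled arrays (adjusted p = 0.065 to 0.096) or within replicates 1 and 5 (0.86, adjusted p = 0.089).

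Among the alpha chains that recognise the RGD motif of fibronectin and vitronectin, Itgav was lower, Itga8 was higher, and Itga5 and Itga2b did not pass. Itgav, which encodes the alpha V chain that pairs with several beta chains and also activates latent TGF-beta, had 8.24, 7.99 and 7.64 on the KO-labelled and 10.62, 10.55 and 10.76 on the WT-labelled arrays. Both groups were tight relative to the gap, a log2 fold change of −2.68 (limma, adjusted p = 4.3e-05, standard error 0.16), or 6.43-fold lower. The 3 brighter of its 5 probe sets gave −2.68, −2.49 and −1.80, and the 2 dim ones, at means of 3.84 and 4.39 under the KO label and of 4.02 and 4.63 under the WT label, did not pass, so that the mean of all 5 gave −1.48. Itga8, known from kidney development, had 4.85, 4.81 and 5.69 on the KO-labelled and 4.30, 4.42 and 4.15 on the WT-labelled arrays. KO replicate 5 stood above the rest, and without it the log2 fold change was 0.54 (adjusted p = 0.012 from limma). The other 5 arrays lay below the median of all probe sets. The log2 fold change of 0.82 (adjusted p = 0.035 from limma) did not pass without any 1 of the WT-labelled arrays (adjusted p = 0.07 to 0.096), when blocked on replicate number (adjusted p = 0.055) or within replicates 1 and 5 (1.04, adjusted p = 0.069). The other Itga8 probe set had 4.89, 5.52 and 5.28 on the KO-labelled and 4.27, 4.56 and 4.25 on the WT-labelled arrays. There the highest array was KO replicate 3, and the log2 fold change was 0.87 (adjusted p = 0.0083 from limma). Itga5, the chain of the classical fibronectin receptor, was measured by 1 probe set, with 5.32, 5.53 and 5.62 on the KO-labelled and 6.12, 6.03 and 5.21 on the WT-labelled arrays. The groups overlapped through WT replicate 5, and the values lay near the median of all probe sets (5.67). Its log2 fold change of −0.29 (adjusted p = 0.42 from limma) was −0.58 (adjusted p = 0.012) without WT replicate 5. Itga2b, the alpha chain of the platelet fibrinogen receptor, had means of 6.83 on the KO-labelled and 7.05 on the WT-labelled arrays (adjusted p = 0.32 from limma).

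Itga9 was the alpha gene with the largest rise, while its nearest relative Itga4 was dim under both labels. Itga9, a receptor chain for tenascin, osteopontin and VCAM1, had 7.75, 6.05 and 7.28 on the KO-labelled and 5.08, 4.83 and 5.18 on the WT-labelled arrays. KO replicate 3 was the lowest of the KO-labelled arrays but lay above every WT-labelled array. The log2 fold change was 2.00 (limma, adjusted p = 0.0088, standard error 0.41), between 1.64 and 2.48 when 1 array was left out, and its 3 probe sets gave 1.41 to 2.08. Itga4, which pairs with beta 1 or beta 7 on leukocytes, had means of 4.49 and 4.44 under the KO and WT labels, with 5 probe sets of which none passed.

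Of the alpha chains that bind collagen, Itga10 was lower, and Itga1 and Itga2 were dim. Itga10, the collagen receptor chain of cartilage, had 5.32, 5.41 and 5.43 on the KO-labelled and 5.66, 6.49 and 6.22 on the WT-labelled arrays. WT replicate 1 lay nearest to the KO-labelled arrays, and the log2 fold change of −0.74 (adjusted p = 0.027 from limma) did not pass without any 1 of the KO-labelled arrays (adjusted p = 0.06 to 0.078), without WT replicate 3 (−0.56) or 5 (−0.69), or within replicates 1 and 5 (−0.57, adjusted p = 0.12). Itga1 and Itga2, the common collagen receptor chains of mesenchymal and epithelial cells, stayed under the median of all probe sets on all 6 arrays, with means of 4.90 and 5.02 under the KO label and of 5.02 and 4.98 under the WT label. The alpha chains of leukocyte integrins, Itgae, Itgal, Itgam and Itgax, gave 0 calls in limma, with log2 fold changes from 0.01 to 0.12. Of these, Itgae had the highest means, 6.11 on the KO-labelled and 5.99 on the WT-labelled arrays.

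**Figure D2:**
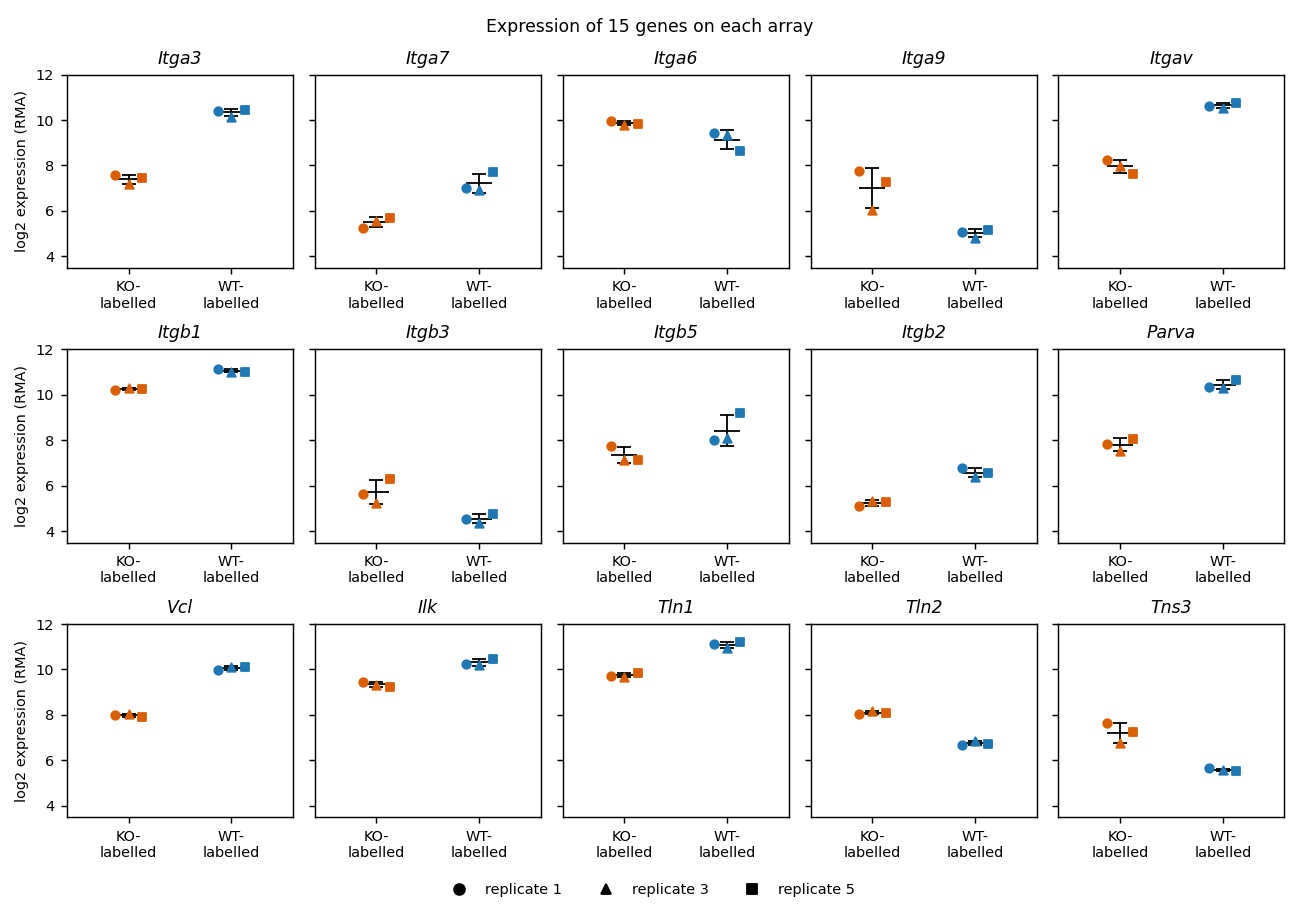
Log2 expression (y axis) of 15 genes on each of the 3 KO-labelled (orange) and 3 WT-labelled (blue) arrays, with marker shapes for the replicate numbers and black bars for mean ± SD. Itga3, Itga7, Itgav, Itgb1, Itgb5, Itgb2, Parva, Vcl, Ilk and Tln1 lie lower and Itga6, Itga9, Itgb3, Tln2 and Tns3 higher on the KO-labelled arrays. All 15 are from the genes that passed without overlap, so their separation follows from the choice of genes. The groups did not overlap for 24 of the 40 genes and for 51.5% of all genes.

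Of the 8 beta genes, Itgb1, Itgb2 and Itgb5 were lower and Itgb3 was higher on the KO-labelled arrays. This is 37.5% lower and 12.5% higher, against 19.2% and 22.6% of all genes. Itgb1 encodes the beta chain that most alpha chains of fibroblasts and stem cells share. It had 10.20, 10.29 and 10.24 on the KO-labelled and 11.12, 11.01 and 11.02 on the WT-labelled arrays. The 3 arrays of each label lay close together, with SDs of 0.04 and 0.06 under the KO and WT labels, and the log2 fold change was −0.81 (limma, adjusted p = 0.00018, standard error 0.067), or 1.76-fold lower. All 5 of its probe sets passed in this direction, at −0.81 to −0.32, the smallest change on a dim one, and their mean gave −0.50. Itgb3, the partner of alpha V and of the platelet chain, had 5.62, 5.25 and 6.28 on the KO-labelled and 4.54, 4.36 and 4.74 on the WT-labelled arrays. The WT-labelled values were near the nonspecific background, the groups did not overlap, and the log2 fold change was 1.17 (limma, adjusted p = 0.012, standard error 0.26). Values at background can understate a difference, here and for other genes near background under 1 label. Both of its probe sets passed. Within each array, the difference Itgb1 minus Itgb3 was 4.58, 5.04 and 3.95 under the KO label and 6.59, 6.65 and 6.28 under the WT label, a shift of −1.98 (exact two-sided permutation p = 0.1, the smallest that 3 arrays against 3 allow).

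Itgb5, which pairs with alpha V as a vitronectin receptor, had 7.74, 7.12 and 7.14 on the KO-labelled and 7.99, 8.09 and 9.19 on the WT-labelled arrays. WT replicate 5 stood above the others, and KO replicate 1 lay close to WT replicate 1. Without WT replicate 5 the log2 fold change was −0.71 (adjusted p = 0.046 from limma). The log2 fold change of −1.09 (limma, adjusted p = 0.046, standard error 0.35) did not pass when blocked on replicate number (adjusted p = 0.068), after quantile normalisation (adjusted p = 0.056), within replicates 1 and 5 (adjusted p = 0.15), or without KO replicate 3 or 5 or WT replicate 3 (adjusted p = 0.063 to 0.13). Itgb2, the beta chain of leukocyte integrins, had 5.11, 5.33 and 5.28 on the KO-labelled and 6.77, 6.40 and 6.56 on the WT-labelled arrays. The groups were clearly apart, with a log2 fold change of −1.34 (adjusted p = 0.00021 from limma). Ptprc, the pan-leukocyte marker CD45, was near background under both labels (3.66 on the KO-labelled and 3.75 on the WT-labelled arrays). Of the 8 leukocyte markers measured, 2 were higher and 1 lower, 37.5% against 41.9% of all genes. Their sums were 473 to 814 under the KO label and 306 to 387 under the WT label, and without Laptm5 they overlapped, at 268 to 347 under the KO label and 274 to 354 under the WT label. Itgb4, the partner of alpha 6 in hemidesmosomes, had 8.14, 7.19 and 7.56 on the KO-labelled and 7.22, 6.96 and 7.04 on the WT-labelled arrays. KO replicate 3 lay within the range of the WT-labelled arrays, and the log2 fold change of 0.56 (adjusted p = 0.11 from limma) passed without that array (0.78, adjusted p = 0.024) and when blocked on replicate number (adjusted p = 0.038). Itgb7, a beta chain of lymphocytes, had means of 8.84 and 8.57 under the KO and WT labels and overlapped, while Itgb6 and Itgb2l were dim on all 6 arrays.

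The adaptor genes moved mostly in 1 direction, with 10 of 16 lower, 2 higher and 4 not passing. The lower share of 62.5% stands beside 19.2% of all genes. Over 2-fold, 5 were lower and 2 higher, together 43.8% of the 16. Over all genes 19.4% changed by that much, 10.1% lower and 9.27% higher. The complex of ILK, PINCH and parvin, which docks at beta tails and binds actin, was lower in Ilk, Lims1 and Parva but not in every gene measured. Parva, which encodes alpha-parvin, had 7.83, 7.51 and 8.06 on the KO-labelled and 10.35, 10.31 and 10.66 on the WT-labelled arrays. Values did not come near each other, and the log2 fold change was −2.64 (limma, adjusted p = 5.3e-05, standard error 0.16), or 6.23-fold lower, on its 1 probe set. Ilk, the pseudokinase at the centre of the complex, had 9.46, 9.31 and 9.25 on the KO-labelled and 10.25, 10.21 and 10.47 on the WT-labelled arrays (log2 fold change −0.97, adjusted p = 0.00043 from limma). Lims1, which encodes PINCH1, had 7.26, 7.61 and 7.22 on the KO-labelled and 8.24, 8.19 and 8.33 on the WT-labelled arrays (log2 fold change −0.89, adjusted p = 0.0013 from limma). That probe set can also take up related transcripts, and 2 others of Lims1 both gave −0.81. Its relative Lims2 had means of 6.15 on the KO-labelled and 6.0 on the WT-labelled arrays and did not pass (adjusted p = 0.18 from limma). Of the other parvins, Parvb overlapped between the labels (log2 fold change 0.06, adjusted p = 0.94 from limma), and Parvg was 0.28 higher (adjusted p = 0.045 from limma).

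Vcl, which encodes vinculin, the link between talin and actin, had 7.99, 8.04 and 7.91 on the KO-labelled and 9.96, 10.12 and 10.12 on the WT-labelled arrays. The groups were tight, with SDs of 0.06 and 0.09 under the KO and WT labels, and the log2 fold change was −2.08 (limma, adjusted p = 6.9e-06, standard error 0.077), or 4.24-fold lower. Zyx, a LIM protein of mature adhesions and stress fibres, had 9.78, 9.99 and 9.80 on the KO-labelled and 11.37, 10.98 and 11.43 on the WT-labelled arrays, a log2 fold change of −1.41 (adjusted p = 0.00034 from limma). Actn1, the actin crosslinker alpha-actinin 1, had 8.79, 8.56 and 9.17 on the KO-labelled and 10.30, 10.14 and 10.28 on the WT-labelled arrays. The groups did not overlap, at −1.40 (adjusted p = 0.00063 from limma), and its brightest probe set gave −0.58. Flna, the actin crosslinker filamin A that also binds beta tails, fell by 0.91 on the log2 scale (10.75 ± 0.06 on the KO-labelled and 11.66 ± 0.15 on the WT-labelled arrays, SD, n = 3 each, adjusted p = 0.00041 from limma). Pxn, the scaffold paxillin, and Src, its kinase, fell by less, with means of 8.77 and 9.43 under the KO label and of 9.49 and 10.20 under the WT label. Src passed (adjusted p = 0.035 from limma) but not without KO replicate 1 or 3 or WT replicate 1 or 5 (adjusted p = 0.052 to 0.1). Fermt2, which encodes kindlin-2, the partner of talin at beta tails, had 9.99, 9.38 and 9.66 on the KO-labelled and 9.81, 9.48 and 9.60 on the WT-labelled arrays. On this probe set the groups overlapped fully (limma, log2 fold change 0.05, standard error 0.17, adjusted p = 0.86). Another had 9.78, 9.75 and 9.76 on the KO-labelled and 9.54, 9.65 and 9.58 on the WT-labelled arrays, without overlap (log2 fold change 0.17). None of the 3 probe sets of Fermt2 passed. Bcar1, the Src substrate p130Cas, also overlapped, with means of 8.15 and 8.12 under the KO and WT labels.

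The talins changed in opposite directions. Tln1, the talin of most cells, had 9.72, 9.68 and 9.84 on the KO-labelled and 11.10, 10.94 and 11.22 on the WT-labelled arrays, a log2 fold change of −1.34 (limma, adjusted p = 9.3e-05, standard error 0.095). Tln2, the form prominent in brain and muscle, had 8.06, 8.16 and 8.08 on the KO-labelled and 6.69, 6.86 and 6.74 on the WT-labelled arrays, a log2 fold change of 1.34 (limma, adjusted p = 3.6e-05, standard error 0.075). Every probe set of both genes passed in its gene's direction, at −1.34 and −0.79 for Tln1 and at 0.79 to 1.34 for Tln2. Within each array, Tln1 minus Tln2 was 1.66, 1.52 and 1.76 under the KO label and 4.41, 4.08 and 4.49 under the WT label, a shift of −2.68. The shift was −1.03 for Lims1 minus Lims2, −1.01 for Itga5 minus Itga6 and −1.08 for Tns1 minus Tns3. The pair of Tns1 and Tns3 overlapped between the labels (exact two-sided permutation p = 0.3), while the other 4 pairs had p = 0.1, the smallest possible, and 0.125 after adjustment over the 5 pairs.

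**Figure D3:**
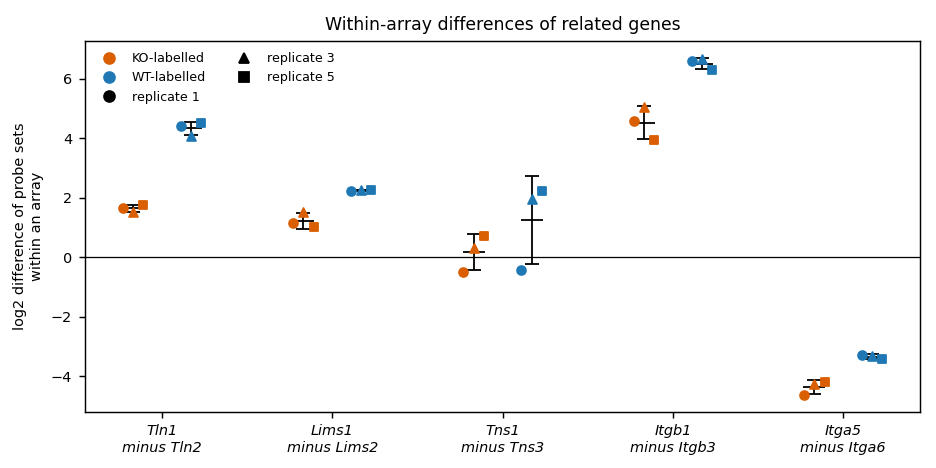
Differences between the probe sets of 2 related genes within an array (log2, y axis) on the KO-labelled (orange, left) and WT-labelled (blue, right) arrays, with circles, triangles and squares for replicates 1, 3 and 5 and bars for mean ± SD. Only the shift between the labels is to be read, since probe sets differ in brightness. The shift is −2.68 for Tln1 minus Tln2 and −1.98 for Itgb1 minus Itgb3, where Itgb3 is near background on the WT-labelled arrays, and the labels overlap for Tns1 minus Tns3.

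The tensins, which bind beta tails and actin in fibrillar adhesions, depended on the probe set or the array. Tns3 had 7.64, 6.75 and 7.23 on the KO-labelled and 5.65, 5.57 and 5.53 on the WT-labelled arrays, a log2 fold change of 1.62 (limma, adjusted p = 0.0013, standard error 0.21). Its other probe set was far brighter, with means of 11.36 on the KO-labelled and 11.09 on the WT-labelled arrays, and gave 0.27, which did not pass (adjusted p = 0.056 from limma). Tns1 had the widest spread of the 40 genes, with 7.15, 7.04 and 7.94 on the KO-labelled and 5.21, 7.53 and 7.76 on the WT-labelled arrays. WT replicate 1 stood apart, also on a second Tns1 probe set (7.44, against 8.59 and 9.13 on the other WT-labelled arrays), and none of its 3 probe sets passed. For most other genes the spread was small, with a median SD over the 40 genes of 0.18 on the KO-labelled and 0.16 on the WT-labelled arrays. Of the 24 genes with several probe sets, Itgb3bp included, 14 passed in 1 direction on all of them and 6 on none, 4 (Itgav, Lims1, Tns3 and Itgb3bp) passed on some only, and 0 passed in both directions.

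Promoters around the RefSeq start sites (GRCm38.p6, 250 bases before to 50 after) were given for 29 of the 40 genes. They were searched on both strands for the CArG box of serum response factor and for GGAATG, the core bound by TEAD factors. The other patterns were TGANTCA, which is wider than the AP-1 sites TGACTCA and TGAGTCA that it includes, and GGGCGG, the Sp1 site. Of these promoters, 5 are shown in full, as the genes on which the comparison turns, with 1 match each in capitals. Matches to the other searched patterns are left in lower case, such as GGAATG and GGGCGG in Vcl. Pairs with the same searched pattern but different behaviour are placed together. Vcl (chr14:20929148-20929447, plus strand) and Fermt2 (chr14:45530016-45530315, minus strand) both hold a CArG box, and Vcl fell while Fermt2 did not pass. Itga3 (chr11:95069149-95069448, minus strand, one of its 2 start sites) and Itga9 (chr9:118711442-118711741, plus strand) both hold TGANTCA and changed in opposite directions. The match is TGACTCA, an AP-1 site, in Itga9 but TGAATCA in Itga3. Itgb1 (chr8:128685404-128685703, plus strand) holds GGAATG.
Vcl: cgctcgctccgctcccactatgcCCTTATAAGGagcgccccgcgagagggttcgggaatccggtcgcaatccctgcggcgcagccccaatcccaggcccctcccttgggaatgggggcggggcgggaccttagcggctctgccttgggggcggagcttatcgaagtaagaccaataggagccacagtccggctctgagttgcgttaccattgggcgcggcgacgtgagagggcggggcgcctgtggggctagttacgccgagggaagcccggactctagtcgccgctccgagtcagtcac
Fermt2: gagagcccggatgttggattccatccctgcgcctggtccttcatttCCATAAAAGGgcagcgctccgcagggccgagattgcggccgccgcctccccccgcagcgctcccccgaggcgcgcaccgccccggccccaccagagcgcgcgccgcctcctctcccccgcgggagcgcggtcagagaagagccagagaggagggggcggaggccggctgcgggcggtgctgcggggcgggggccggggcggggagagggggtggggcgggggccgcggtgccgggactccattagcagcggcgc
Itga3: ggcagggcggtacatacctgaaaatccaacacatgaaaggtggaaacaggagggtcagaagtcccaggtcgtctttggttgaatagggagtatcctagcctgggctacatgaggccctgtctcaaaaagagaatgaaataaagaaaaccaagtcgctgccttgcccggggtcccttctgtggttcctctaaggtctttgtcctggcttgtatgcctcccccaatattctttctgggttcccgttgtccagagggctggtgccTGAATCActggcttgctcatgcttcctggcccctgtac
Itga9: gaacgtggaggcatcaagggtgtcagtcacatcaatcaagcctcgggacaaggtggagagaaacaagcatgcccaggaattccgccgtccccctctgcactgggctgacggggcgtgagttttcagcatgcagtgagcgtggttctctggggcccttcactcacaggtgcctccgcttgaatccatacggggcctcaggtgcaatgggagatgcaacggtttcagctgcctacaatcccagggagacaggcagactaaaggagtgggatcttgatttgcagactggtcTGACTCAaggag
Itgb1: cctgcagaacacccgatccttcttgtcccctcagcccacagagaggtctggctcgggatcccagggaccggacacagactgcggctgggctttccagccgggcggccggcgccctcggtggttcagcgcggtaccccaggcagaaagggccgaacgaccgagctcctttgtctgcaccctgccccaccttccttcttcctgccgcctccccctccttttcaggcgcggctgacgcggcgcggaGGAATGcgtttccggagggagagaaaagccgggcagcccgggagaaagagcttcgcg
The 29 genes have 35 promoters. The CArG box occurred in 1.63% of all 32851 promoters and in 3 of these 35 (Vcl, Fermt2 and Itgb6), and only Vcl fell. GGAATG occurred in 14.7% of all promoters and in 4 of the 35 (Vcl, Itgb1, Flna and Itga10). All 4 genes fell, among 13 genes that fell and had a promoter. TGANTCA occurred in 7.81% of all promoters and in 4 of the 35, those of Itga3, Itga9, Zyx and Itgax. Of these genes, Itga3 and Zyx fell, Itga9 rose and Itgax did not pass. GGGCGG occurred in 35.7% of all promoters and in 21 of the 35. These 21 belong to 19 of the 29 genes, with 11 of the 13 that fell and 1 of the 3 that rose. A match describes the letters in this window and not a site in use.

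Beyond these members, 44 further focal adhesion genes were measured, of which 20 were lower, 7 higher and 17 did not pass, with a median log2 fold change of −0.43. The lower calls made up 45.5%, against 19.2% of all genes, and the higher calls 15.9%, against 22.6%. The largest falls were of LIM domain genes. Tes, which encodes testin, a partner of zyxin, had 6.06, 6.35 and 6.37 on the KO-labelled and 9.77, 9.72 and 9.43 on the WT-labelled arrays (log2 fold change −3.38, adjusted p = 8.1e-06 from limma). Lpp, of the zyxin family, fell by 2.86, Csrp1 by 2.33 and Pdlim5 by 2.12 on the log2 scale, with −1.25 on the brightest probe set of Pdlim5. The largest rise was of Enah, an actin elongation factor of the Ena/VASP family, with 11.57, 11.19 and 11.20 on the KO-labelled and 6.53, 6.61 and 7.37 on the WT-labelled arrays (log2 fold change 4.48, adjusted p = 3.2e-05 from limma). Its relatives did not follow, since Evl fell by 0.72 and Vasp had means of 8.31 and 8.47 under the KO and WT labels and did not pass. Elmo1, which activates Rac together with DOCK1, rose by 2.43, and Kank1, which binds talin at adhesion rims, by 2.12. Asap2, an Arf GTPase-activating protein, rose by 1.14, with 0.27 (adjusted p = 0.07 from limma) on its brightest probe set.

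Of 27 integrin ligands, 12 were lower, 5 higher and 10 did not pass, with a median log2 fold change of −0.59. This is 44.4% lower and 18.5% higher, against 19.2% and 22.6% of all genes. Collagen I chain Col1a1 had 6.24, 5.75 and 6.52 on the KO-labelled and 11.35, 11.65 and 12.66 on the WT-labelled arrays (log2 fold change −5.72, adjusted p = 6.2e-05 from limma). Tenascin C (Tnc), a ligand of the alpha 9 chain, fell by 4.38, the matricellular gene Ccn1 by 4.14 and Ltbp1, which holds latent TGF-beta in the matrix, by 3.74. Averaged over all probe sets of the gene, the log2 fold change was −2.24 for Tnc and −1.48 for Ltbp1. The genes that rose included Cdh1, E-cadherin, the ligand of the chain encoded by Itgae, with 9.92, 9.79 and 9.02 on the KO-labelled and 4.35, 4.29 and 4.40 on the WT-labelled arrays (log2 fold change 5.23, adjusted p = 1.4e-05 from limma). Laminin chain Lama1 rose by 4.07 (9.87, 10.12 and 10.99 on the KO-labelled, 6.32, 6.11 and 6.33 on the WT-labelled arrays), while the laminin chain Lamb1 fell by 2.71 and Lamb3 fell by 1.94. Icam1, a ligand of beta 2 integrins, rose by 3.77. Npnt, nephronectin, the ligand of the alpha 8 chain, rose by 1.81, and its brightest probe set gave 0.24 (adjusted p = 0.075 from limma). Fibronectin (Fn1), the ligand of the alpha 5 and alpha V chains, had 9.82, 9.87 and 10.39 on the KO-labelled and 10.35, 10.59 and 11.18 on the WT-labelled arrays, overlapped at 1 array of each label and did not pass (log2 fold change −0.68, adjusted p = 0.071 from limma).

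**Figure D4:**
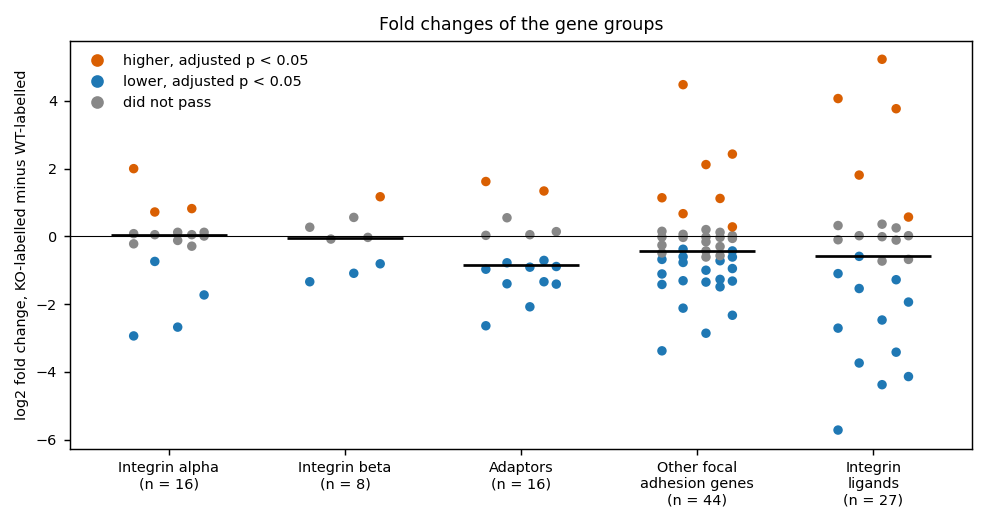
Log2 fold changes (KO-labelled minus WT-labelled arrays, y axis) of the measured genes in 5 groups, 1 point per gene, with a black bar at the median of the group. Orange points were higher and blue points lower at an adjusted p under 0.05. The medians of the adaptor genes (−0.83), the further focal adhesion genes (−0.43) and the ligands (−0.59) lie below 0, and those of the alpha (0.03) and beta (−0.06) genes lie near it. Of the alpha genes 6, of the beta genes 2 and of the adaptor genes 0 lay under the median of all values on all 6 arrays.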

How the data were processed

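RNA was amplified, labelled and hybridised to Affymetrix mouse genome arrays, 1 per sample. The authors deposited RMA values on the log2 scale, 1 per probe set, and the methods name affyPLM for background correction and summarisation. Of 45141 probe sets, 28898 had 1 gene symbol in the platform annotation, 551 had several and named no gene, and 15692 carried no name here.

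A linear model with moderated variance was fitted to all probe sets (limma 3.58.1 under R 4.3.3; lmFit, eBayes) for the KO-labelled against the WT-labelled arrays. Each of 17097 genes took the values of whichever probe set varied most across arrays, and p-values were adjusted over these genes (Benjamini-Hochberg). The scan batch of the study's model is not given per array in the sources used here, so no covariate was used. The main fit filtered no dim probe sets, and 31 of the 40 genes passed a filter tried as an alternative. The number of arrays limits the precision. Members, gene lists and tests were chosen with earlier results of these data known. Named genes were the 5 largest changes in each direction per group among those that passed without overlap, Itgb1, Itgb3, Itga5, Itgav and Slc3a2, and up to 4 per direction of the further lists; the other members were described after their values were seen. The marker lists for endothelial cells (2 of 6 higher), platelets (1 of 4 lower) and muscle (1 of 5 higher) were also counted. The fit was tested on simulated data.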

Additional observations from a re-analysis of the deposited data

How the results depend on the processing

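Of the 23 genes that passed, 17 kept their direction and their call under all 15 alternatives, among them Itga3, Itgav, Itga9, Itgb1, Itgb3, Parva, Vcl, Tln1 and Tln2. Itga6, Itga8, Itga10, Itgb5, Src and Tns3 lost the call under at least 1, Itga5 and Itgb4 gained it, and 0 reversed. The number of alpha genes higher was 3, and 1 both within replicates 1 and 5, an alternative chosen after seeing the data, and with a limit of 2-fold. The beta genes higher numbered 1, and 1 to 2 when 1 array was left out (2 without CD98hc KO replicate 3, through Itgb4). The adaptor genes higher numbered 2, and 1 with the brightest probe set per gene, because Tns3 did not pass there. With a limit of 2-fold, the adaptor genes lower numbered 5 in place of 10, and the further focal adhesion genes lower 12 in place of 20. With the replicate number as a block, the beta genes higher numbered 2, and Itga8 and Itgb5 did not pass. Same-numbered arrays correlated in their deviations from the group means at 0.059, 0.56 and 0.15 for replicates 1, 3 and 5, and the KO replicate 1 array correlated best with WT replicate 5 (0.31), so the numbers were not taken to pair the arrays. A term for the replicate 3 arrays, median centring and the mean of all probe sets changed 0 calls among the 40 genes. Dim genes are limited by background, as 8 of the 40 lay under the median of all values on all 6 arrays.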
